A study of Mus musculus with 8 samples.

Results

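Chemokines are small secreted proteins that attract leukocytes, and their receptors sit on the cells that follow them. On the arrays of this study, 61 probes of the 48 genes reported here carried a name beginning with Ccl, Cxcl, Ccr, Cxcr, Cx3cl or Cx3cr and a number. For each gene the brightest probe was used, and a gene was kept when both arrays of 1 or more of the 4 groups read it well above background. This left 33 genes, 23 ligands and 10 receptors, among 17049 genes kept by the same rule over the whole array.

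The study measured total RNA of liver from KKAy mice, a diabetic strain with the yellow agouti allele on the KK background that the labels mark as diabetes, and from C57BL/6J mice, marked as normal. Mice were 4 or 11 weeks old, ate standard chow and had fasted overnight. Each of the 4 groups had 2 samples, on 1 one-colour Agilent array each, 8 arrays in all, and the labels name no treatment. KKAy and C57BL/6J differ in background as well as in the agouti allele, and the labels give neither the sex nor whether the 2 samples of a group were separate animals, so p-values measure the spread between these samples. Levels are log2 of the processed signal with each array's 75th percentile at 0, and compare arrays for 1 gene, not genes with each other.

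Chemokines are grouped by the spacing of their first cysteines into CC, CXC and CX3C families, and bind receptors coupled to inhibitory G proteins. In liver, Kupffer cells, sinusoidal endothelium, stellate cells and hepatocytes can release them. CXC ligands such as Cxcl1 recruit neutrophils through CXCR2, the interferon-induced ligands Cxcl9, Cxcl10 and Cxcl11 recruit T and natural killer cells through CXCR3, Ccl2 and Ccl7 draw monocytes through CCR2, and Ccl19 and Ccl21 guide cells with CCR7 in lymphoid tissue.

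The 250 bases before the start of 3 CXC ligand genes on chromosome 5 are shown first. Cxcl1 had the largest strain difference, Cxcl9 and Cxcl10 were lower in KKAy at 4 weeks, and the 3 windows differ in motifs of inducible genes. The sequences are from RefSeq on GRCm38.p6, in the direction of the gene, at chr5:90890995-90891244 on the plus strand for Cxcl1, chr5:92348890-92349139 on the minus strand for Cxcl10 and chr5:92328080-92328329 on the minus strand for Cxcl9. Capitals mark matches on either strand to 1 of 2 motifs. The NF-kB type motif is GGG, any 3 bases and TTCC, and the interferon response element (ISRE) type motif is GAAA, any 2 bases and GAAA.
Cxcl1: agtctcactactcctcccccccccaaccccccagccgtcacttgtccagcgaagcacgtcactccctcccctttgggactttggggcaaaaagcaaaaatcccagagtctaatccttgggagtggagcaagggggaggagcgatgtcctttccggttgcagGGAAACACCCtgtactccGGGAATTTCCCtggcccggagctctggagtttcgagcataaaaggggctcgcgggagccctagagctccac
Cxcl10: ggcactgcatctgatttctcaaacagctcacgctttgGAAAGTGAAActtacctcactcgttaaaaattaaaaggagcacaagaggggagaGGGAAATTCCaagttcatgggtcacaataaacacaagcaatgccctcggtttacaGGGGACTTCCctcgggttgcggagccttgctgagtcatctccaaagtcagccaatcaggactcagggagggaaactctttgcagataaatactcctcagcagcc
Cxcl9: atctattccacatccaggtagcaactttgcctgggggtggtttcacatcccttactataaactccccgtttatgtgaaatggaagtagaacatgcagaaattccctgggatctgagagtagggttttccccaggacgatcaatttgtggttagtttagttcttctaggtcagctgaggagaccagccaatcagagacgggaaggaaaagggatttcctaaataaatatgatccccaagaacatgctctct
Before Cxcl1 there were 3 NF-kB type matches, of which 2 overlapped on opposite strands, at 71 to 62 and 70 to 61 bases before the start, and the third lay at 89 to 80 bases. Cxcl10 had NF-kB type matches at 159 to 150 and at 104 to 95 bases and an ISRE type match at 213 to 204 bases, and Cxcl9 had neither. Promoters of 24 of the 33 genes were in the table, 28 promoters in all. The NF-kB type motif was in 5 of these 28, those of Ccl9, Ccr3, Ccr6, Cxcl1 and Cxcl10, and in 4.65% of all 32851 promoters in the same window. The ISRE type motif was in 3, those of Ccl19, Cxcl10 and Cxcl14, and in 2.98% of all promoters. A match describes letters and is not a measured binding site.

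The kept genes were detected unevenly over the groups. 25 of the 33 were well above background on all 8 arrays. By group, 32 were above background on both arrays in C57BL/6J at 4 weeks and again at 11 weeks, 28 in KKAy at 4 weeks and 26 in KKAy at 11 weeks. Of all spots, 66.7% and 59.7% were well above background in C57BL/6J and 61% and 56.3% in KKAy at 4 weeks. At 11 weeks these shares were 61.7% and 62.1% in C57BL/6J and 57.5% and 56.5% in KKAy, so lower detection in KKAy was not particular to these genes. Cx3cr1 passed only through KKAy at 4 weeks, so a higher level there follows from how it was kept. Ccl17, Ccl28, Ccr2 and Ccr7 passed only through C57BL/6J, so a lower level of them in KKAy follows in the same way, and their strain differences are given below as a description, with no p. Ccl17, Ccl28, Ccl4, Ccr2, Ccr7, Ccr9 and Cxcr4 were above background on both arrays of fewer groups in KKAy than in C57BL/6J. Nearest to being kept were Ccl3, Ccl8 and Ccr1l1, each above background on 1 C57BL/6J array at each age. Also left out were Ccl12 and Ccr4, above background on 1 array each, and Ccl1, Ccl11, Ccl20, Ccl22, Ccr1, Ccr10, Ccr8, Cxcl15, Cxcl2 and Cxcl5, on none.

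**Figure D1:**
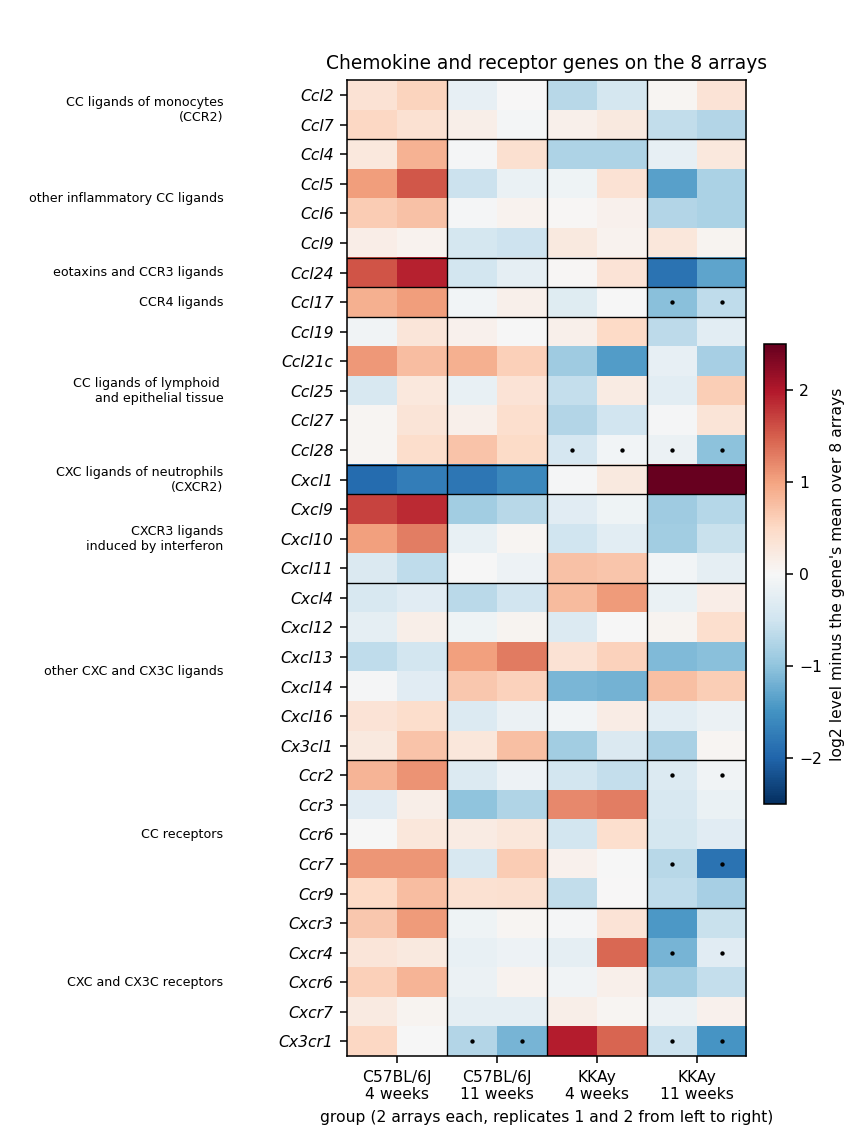
Level of each of the 33 genes on the 8 arrays, as log2 level minus the gene's mean over the arrays (colour, which saturates at 2.5), with genes in rows by role and arrays in columns; a dot marks a group with neither array well above background. The darkest cells are Cxcl1 on the 2 KKAy arrays at 11 weeks, and Cxcl9, Ccl24 and Ccl5 are brightest on the 2 C57BL/6J arrays at 4 weeks.

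The 75th percentile signal ranged from 491.6 to 1241 between arrays, 56.3% to 66.7% of spots were well above background, and no spot was saturated. The 4-week arrays shared a slide and the 11-week arrays shared the other, so slide and age cannot be told apart. Each strain took the same positions on both slides, so position and strain cannot be told apart either. Paired arrays of a group had a median SD of 0.15 to 0.23 for the kept genes and 0.13 to 0.22 for all genes tested. Hepatocyte markers were high in every group, with a summed signal of 826 to 1261 times the 75th percentile over the 8 arrays. Of the 4 measured, none was called between the strains at 4 weeks. At 11 weeks 1 was higher and 2 lower in KKAy, against 9.81% and 11.7% of all genes. In whole liver, fewer cells of a type and less RNA per cell cannot be told apart.

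At 4 weeks, more chemokine genes were called lower than higher in KKAy, a balance that rested on single arrays. Of the 33 genes, 5 were higher and 13 lower in KKAy at an adjusted p under 0.05 (limma with Benjamini-Hochberg adjustment over all genes tested), against 6.5% of all genes higher and 8.92% lower (15.4% in either direction). The median log2 difference was -0.61 over the 33 genes and 0.02 over all genes. At 11 weeks 2 were higher and 9 lower, against 9.81% and 11.7% of all genes (21.5% in either direction), with medians of -0.51 and -0.01. Called in the same direction at both ages were 7 genes. Of these, Cxcl1 was higher at both ages (4.01% of all genes were), and Ccl17, Ccl21c, Ccl24, Ccl6, Ccr9 and Cxcr6 were lower at both (5.38%). Cxcl13 was called in opposite directions (0.61%). The strain differences at the 2 ages come from different arrays. The genes called lower include Ccl17 and Ccr2 at 4 weeks and Ccl17 and Ccl28 at 11 weeks, which had passed only through C57BL/6J. A separate fit took only probes above background on all 8 arrays, which left 25 genes of the family. It called 5 higher and 10 lower at 4 weeks, and 2 higher and 7 lower at 11 weeks. Of these calls, 14 at 4 weeks and 8 at 11 weeks were also made in the main fit. The separate fit called 14.6% and 21.0% of all its genes.

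These counts depended on scaling and on single arrays. Scaled on spike-in probes, which moved the median difference of all genes to 0.37 at 4 weeks and 0.14 at 11 weeks, 6 were higher and 7 lower at 4 weeks, and 4 higher and 6 lower at 11 weeks. Spike-in scaling ended the calls of Ccl2, Ccl27, Ccl6, Ccr9, Cxcl14 and Cxcr6 at 4 weeks and of Ccl17, Ccl7 and Cxcr6 at 11 weeks. Called in 1 direction at both ages were then 3 higher and 2 lower, and 3 higher and 6 lower after quantile normalization. Any 1 array left out gave 2 to 5 such genes. Leaving out KKAy replicate 1 or C57BL/6J replicate 2 of 4 weeks left 5 higher and 5 lower at 4 weeks, and leaving out an 11-week array left 3 (C57BL/6J replicate 1), 4 (C57BL/6J replicate 2) or 7 (either KKAy array) calls at 11 weeks. Under the normexp background correction, which pulls dim signals together, 5 were higher and 6 lower at 4 weeks and 2 higher and 4 lower at 11 weeks. It ended the calls of Ccl17, Ccl2, Ccl27, Ccl4, Ccr2, Ccr3, Ccr9, Cxcl14 and Cxcr6 at 4 weeks and of Ccl17, Ccl28, Ccl7, Ccr9 and Cxcr6 at 11 weeks.

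**Figure D2:**
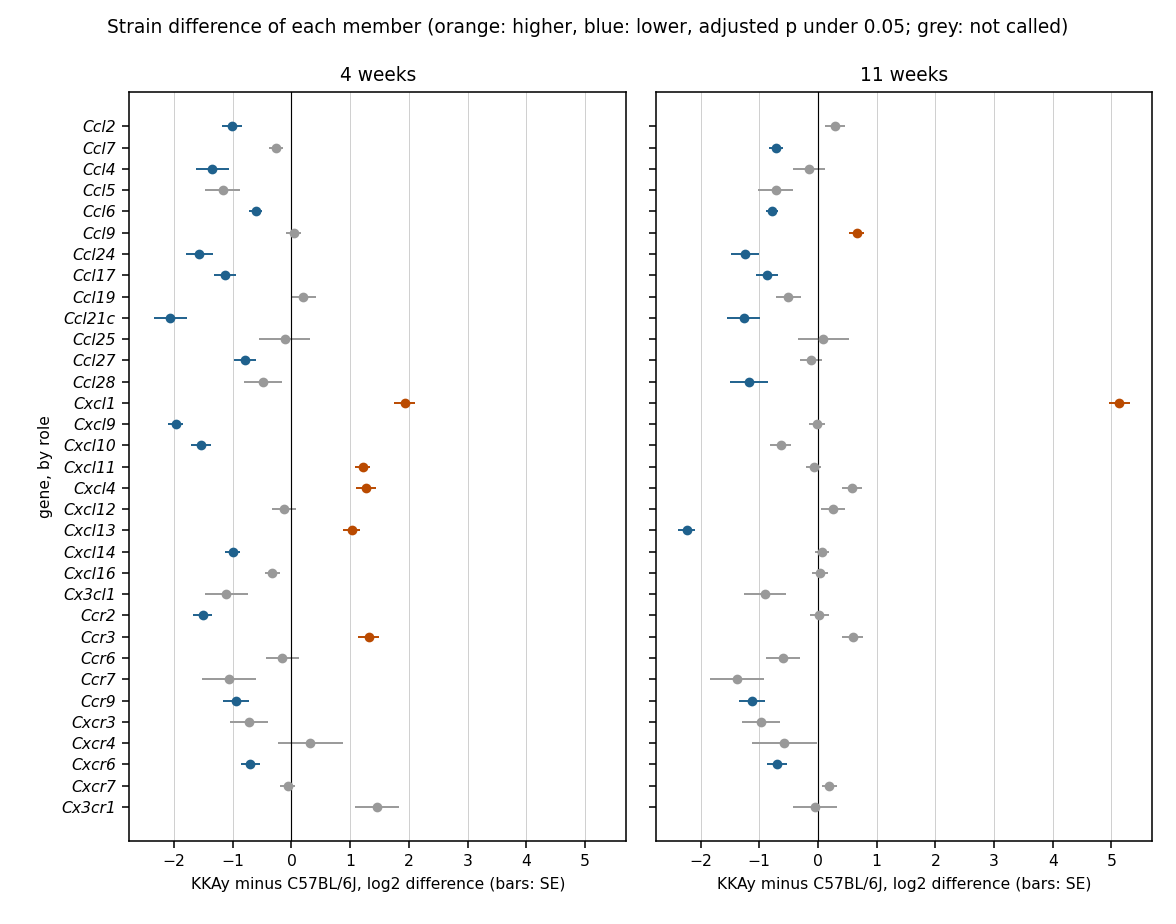
Log2 difference of KKAy minus C57BL/6J (points) with its standard error (bars) for each of the 33 genes at 4 weeks (left) and 11 weeks (right), on 1 shared scale, with genes by role; colour marks calls. Cxcl1 is the point farthest right at both ages, at 1.93 and 5.13, and most coloured points lie left of 0.

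Cxcl1, a neutrophil attractant, had the largest strain difference of the 33 genes at 11 weeks. Its probe lies on chromosome 5 at 91968019 to 91968078 (mm8, as the array files give it). Cxcl1 levels were -4.35 and -4.15 at 4 weeks and -4.23 and -4.03 at 11 weeks in C57BL/6J. In KKAy, Cxcl1 stood at -2.46 and -2.19 at 4 weeks and 0.81 and 1.19 at 11 weeks. Both KKAy arrays were above both C57BL/6J arrays at each age, and both KKAy arrays at 11 weeks stood above all others. The strain difference was 1.93 (SE 0.18, adjusted p = 0.00171) at 4 weeks, a 3.81-fold higher level, and 5.13 (SE 0.18, adjusted p = 7.76e-05) at 11 weeks, 35.1-fold. Within KKAy, Cxcl1 rose with age by 3.33 (SE 0.18, adjusted p = 0.000342) on the log2 scale, while in C57BL/6J its age difference was 0.12 (SE 0.18, adjusted p = 0.798). The strain difference grew between the ages by 3.21 (SE 0.25, adjusted p = 0.00462). Each of these calls of Cxcl1 held in every alternative fit that was run, but under the normexp correction the strain difference was smaller, 1.24 at 4 weeks and 3.72 at 11 weeks. The promoter printed above for Cxcl1 carries the overlapping NF-kB type matches.

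The other CXCR2 ligands that the name rule covers gave no level to compare with Cxcl1. Ppbp, which also binds CXCR2 but is named otherwise, was higher in KKAy at both ages, as given below. Cxcl2, whose probe lies at 91980708 to 91980767 next to that of Cxcl1, was not well above background on any array, nor were Cxcl5 and Cxcl15 in the same stretch of chromosome 5. Cxcl2 values ran between -7.98 and -7.12 on the 8 arrays. Of 4 measured neutrophil markers, 2 were higher in KKAy at 11 weeks, against 9.81% of all genes, and none was called at 4 weeks. S100a8 and S100a9, which encode the calprotectin subunits, were higher by 1.57 (SE 0.15, adjusted p = 0.00153) and 2.31 (SE 0.28, adjusted p = 0.00304). Mpo and Retnlg, with differences of 0.30 (SE 0.16, adjusted p = 0.237) and 0.26 (SE 0.13, adjusted p = 0.228), were not called. Elane, Camp and Ngp were not above background. The summed signal of the 4 markers was 1.86 to 2.45 in C57BL/6J at 4 weeks, 1.28 to 1.64 in C57BL/6J at 11 weeks, 2.80 to 3.75 in KKAy at 4 weeks and 5.57 to 7.76 in KKAy at 11 weeks. Most of this sum was S100a9, with a mean log2 signal of 2.61 in KKAy at 11 weeks. The means there were -1.57 for S100a8, -4.29 for Mpo and -3.64 for Retnlg. The part of these markers in the Cxcl1 result was not tested.

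The ligands of CXCR3, which bind a receptor of activated T and natural killer cells, split at 4 weeks, with Cxcl9 and Cxcl10 lower and Cxcl11 higher in KKAy, and none of the 3 was called at 11 weeks. Cxcl9 levels were 1.54 and 1.72 at 4 weeks and -1.01 and -0.84 at 11 weeks in C57BL/6J. In KKAy, Cxcl9 stood at -0.42 and -0.26 at 4 weeks and -1.03 and -0.85 at 11 weeks. The 2 C57BL/6J arrays at 4 weeks were the only ones above 1, and the strains overlapped at 11 weeks. The Cxcl9 difference was -1.97 (SE 0.13, adjusted p = 0.000588) at 4 weeks, 3.93-fold, and -0.01 (SE 0.13, adjusted p = 0.962) at 11 weeks. Cxcl9 fell with age, by a log2 difference of -2.56 (SE 0.13, adjusted p = 0.000605) in C57BL/6J, 5.89-fold, and -0.60 (SE 0.13, adjusted p = 0.0305) in KKAy. The change of the strain difference was 1.96 (SE 0.19, adjusted p = 0.00792), a call lost without C57BL/6J 11-week replicate 1 or C57BL/6J 11-week replicate 2 (adjusted p = 0.0553 to 0.0594). The KKAy age call was lost without any 1 of the 8 arrays (adjusted p = 0.0521 to 0.145).

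Cxcl10 levels were -0.07 and 0.18 at 4 weeks and -1.30 and -1.06 at 11 weeks in C57BL/6J. In KKAy, Cxcl10 stood at -1.60 and -1.38 at 4 weeks and -1.97 and -1.66 at 11 weeks. They were highest on the 2 C57BL/6J arrays at 4 weeks, and the 2 strains did not overlap at either age. The Cxcl10 difference was -1.54 (SE 0.17, adjusted p = 0.00323) at 4 weeks and -0.64 (SE 0.17, adjusted p = 0.0508) at 11 weeks, the second short of the threshold. With age it changed by -1.23 (SE 0.17, adjusted p = 0.0117) in C57BL/6J, a call lost without C57BL/6J 11-week replicate 1, C57BL/6J 11-week replicate 2 or C57BL/6J 4-week replicate 2 (adjusted p = 0.0577 to 0.0974). Cxcl11 went the other way, with -3.14 and -3.43 at 4 weeks and -2.81 and -2.91 at 11 weeks in C57BL/6J. In KKAy, Cxcl11 stood at -2.06 and -2.10 at 4 weeks and -2.86 and -3.01 at 11 weeks. RefSeq's table types Cxcl11 of the mouse reference genome as a transcribed pseudogene. The arrays measured its RNA, and what the KKAy gene encodes is not shown here. The Cxcl11 difference was 1.21 (SE 0.13, adjusted p = 0.003) at 4 weeks and -0.07 (SE 0.13, adjusted p = 0.761) at 11 weeks. In KKAy its age difference was -0.86 (SE 0.13, adjusted p = 0.0099), and the change of the strain difference was -1.28 (SE 0.19, adjusted p = 0.0253). The age call of Cxcl11 was lost without KKAy 4-week replicate 1 or KKAy 4-week replicate 2 (adjusted p = 0.0557 to 0.0602), and the call of the change without any 1 of the 8 arrays (adjusted p = 0.0553 to 0.141). Under normexp the Cxcl11 difference at 4 weeks was 0.77, its age difference -0.39, both called, and the change -0.70, not called.

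Cxcr3, the receptor of these 3 ligands, read -2.56 and -2.16 at 4 weeks and -3.34 and -3.18 at 11 weeks in C57BL/6J. In KKAy, Cxcr3 stood at -3.27 and -2.90 at 4 weeks and -4.67 and -3.79 at 11 weeks. Each KKAy array was below both C57BL/6J arrays of its age, but neither strain difference passed the test, with -0.72 (SE 0.32, adjusted p = 0.216) at 4 weeks and -0.97 (SE 0.32, adjusted p = 0.0846) at 11 weeks. Lymphocyte markers were lower in KKAy beside these genes. At 4 weeks 4 of 6 T cell markers and 4 of 6 natural killer cell markers were lower and none higher, and at 11 weeks 2 of 6 and 4 of 6, against 8.92% and 11.7% of all genes lower. The summed signal of the natural killer cell markers was 1.55 to 1.76 in C57BL/6J at 4 weeks, 0.395 to 0.434 at 11 weeks, 0.446 to 0.510 in KKAy at 4 weeks and 0.2 to 0.212 at 11 weeks, with Ncr1 not above background. For the T cell markers it was 0.995 to 1.12, 0.6 to 0.612, 0.595 to 0.681 and 0.442 to 0.475 in the same order. Their part in the CXCR3 ligand results was not tested.

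Cxcl13, the B cell attractant that binds CXCR5, was higher in KKAy at 4 weeks and lower at 11 weeks. Cxcl13 levels were -2.16 and -1.99 at 4 weeks and -0.50 and -0.23 at 11 weeks in C57BL/6J. In KKAy, Cxcl13 stood at -1.16 and -0.94 at 4 weeks and -2.63 and -2.56 at 11 weeks. With age the 2 C57BL/6J arrays went up and the 2 KKAy arrays went down, with no overlap between groups. The Cxcl13 strain difference was 1.02 (SE 0.14, adjusted p = 0.00684) at 4 weeks, 2.03-fold higher, and -2.23 (SE 0.14, adjusted p = 0.000382) at 11 weeks, 4.70-fold lower. Its age difference was 1.71 (SE 0.14, adjusted p = 0.00235) in C57BL/6J and -1.55 (SE 0.14, adjusted p = 0.002) in KKAy. The Cxcl13 strain difference changed by -3.25 (SE 0.20, adjusted p = 0.0025), the smallest adjusted p of the 33 genes in that test. The 4-week call was lost without C57BL/6J replicate 1 of 4 weeks (adjusted p = 0.0503), and the other calls of Cxcl13 held in every alternative run, with a KKAy age difference of -0.99 under normexp. Its receptor Cxcr5, a gene of B cells and follicular T cells, is outside the 33 because its probe bears another name. It was lower in KKAy at both ages, with differences of -1.38 (SE 0.20, adjusted p = 0.00686) and -1.02 (SE 0.20, adjusted p = 0.0159). B cell markers were lower too, 3 of 5 at 4 weeks and 2 of 5 at 11 weeks with none higher, against 8.92% and 11.7% of all genes lower. Their summed signal was 3.10 to 3.44 and 1.39 to 1.48 in C57BL/6J at 4 and 11 weeks and 1.70 to 1.89 and 1.04 to 1.16 in KKAy. Their part was not tested.

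**Figure D3:**
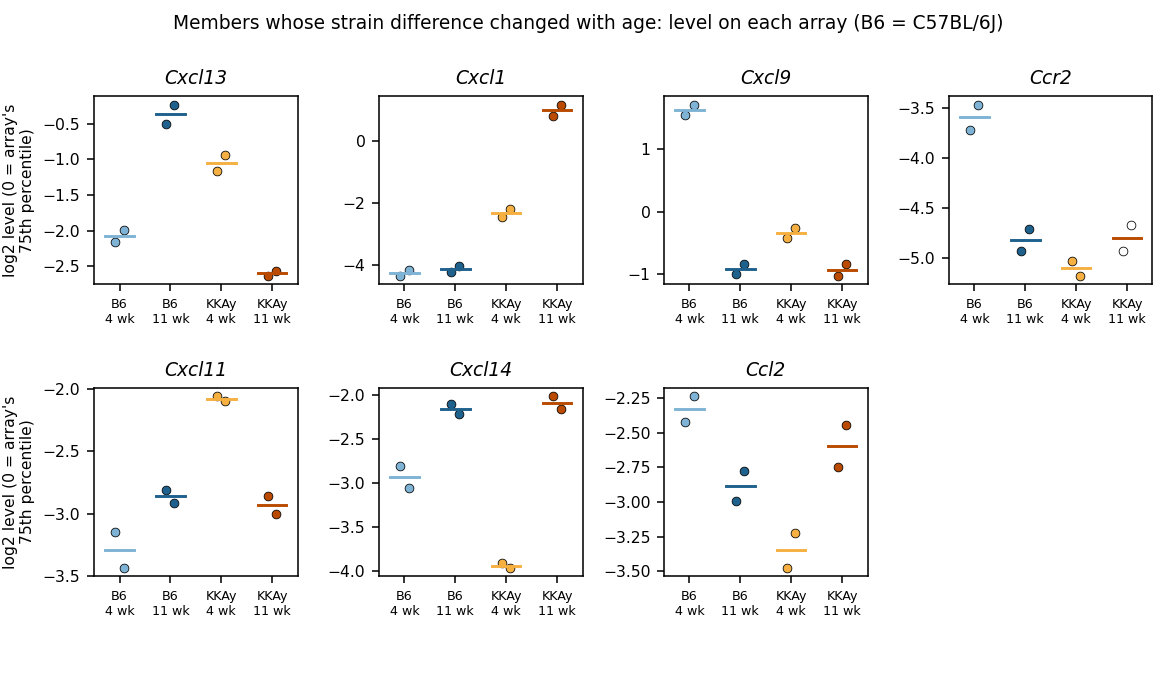
Log2 level (0 is the array's 75th percentile) of the 7 genes whose strain difference changed between the ages, on each array (points) with the group mean (line); open points mark groups not well above background on either array, and each panel has its own scale. Cxcl13 crosses between the strains, Cxcl1 is highest in KKAy at 11 weeks, and Cxcl9 and Ccr2 are highest in C57BL/6J at 4 weeks. The change of Ccr2 is a description with no p.

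Cxcl14 and Cxcl4 also changed by strain or age. Cxcl14, an epithelial chemokine, read -2.81 and -3.05 at 4 weeks and -2.10 and -2.21 at 11 weeks in C57BL/6J. In KKAy, Cxcl14 stood at -3.91 and -3.96 at 4 weeks and -2.01 and -2.15 at 11 weeks. The 2 KKAy arrays at 4 weeks were the lowest, and the strains overlapped at 11 weeks. Its strain difference was -1.0 (SE 0.13, adjusted p = 0.00447) at 4 weeks. It rose with age by 1.85 (SE 0.13, adjusted p = 0.000737) in KKAy and by 0.78 (SE 0.13, adjusted p = 0.0185) in C57BL/6J. The strain difference of Cxcl14 changed by 1.07 (SE 0.18, adjusted p = 0.0357), a call lost without any 1 of the 8 arrays (adjusted p = 0.078 to 0.173). The age call in C57BL/6J was lost without C57BL/6J 11-week replicate 1, C57BL/6J 11-week replicate 2 or C57BL/6J 4-week replicate 2 (adjusted p = 0.103 to 0.15). Under normexp Cxcl14 differed by -0.38 at 4 weeks and changed by 0.46, neither called, and its rise in KKAy was 1.06. Cxcl4, now named Pf4 and best known as platelet factor 4, read -0.92 and -0.79 at 4 weeks and -1.19 and -0.99 at 11 weeks in C57BL/6J. In KKAy, Cxcl4 stood at 0.29 and 0.55 at 4 weeks and -0.67 and -0.35 at 11 weeks. Both KKAy arrays lay above both C57BL/6J arrays at each age, by 1.27 (SE 0.16, adjusted p = 0.00494) at 4 weeks and 0.58 (SE 0.16, adjusted p = 0.0564) at 11 weeks, the latter not called. Cxcl4 fell with age in KKAy, with a difference of -0.93 (SE 0.16, adjusted p = 0.015), a call lost without KKAy 11-week replicate 1 or KKAy 4-week replicate 2 (adjusted p = 0.0603 to 0.0822). Ppbp is another platelet chemokine, which also binds CXCR2 and whose probe name lies outside the rule. It was higher in KKAy by 1.83 (SE 0.17, adjusted p = 0.00181) at 4 weeks and 1.51 (SE 0.17, adjusted p = 0.0027) at 11 weeks.

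Cxcl12 and its receptors Cxcr4 and Cxcr7 were called in no comparison. Cxcl12, the ligand of CXCR4 that retains hematopoietic cells, read 4.80 and 5.17 at 4 weeks and 4.92 and 5.11 at 11 weeks in C57BL/6J. In KKAy, Cxcl12 stood at 4.68 and 5.02 at 4 weeks and 5.09 and 5.45 at 11 weeks. Its strain difference was -0.13 (SE 0.21, adjusted p = 0.781) at 4 weeks and 0.26 (SE 0.21, adjusted p = 0.446) at 11 weeks, and its second probe gave -0.02 and 0.41. Cxcr4 itself was uneven, with -4.63 and -4.67 at 4 weeks and -5.10 and -5.04 at 11 weeks in C57BL/6J. In KKAy, Cxcr4 stood at -5.16 and -3.50 at 4 weeks and -6.08 and -5.21 at 11 weeks. The 2 KKAy arrays at 4 weeks had an SD of 1.18, and the second Cxcr4 probe put the same 2 arrays in the opposite order, at -4.05 and -5.99, so no order of the groups can be read for Cxcr4. Cxcr7, now Ackr3, a scavenging receptor of Cxcl12, read -2.78 and -2.93 at 4 weeks and -3.22 and -3.22 at 11 weeks in C57BL/6J. In KKAy, Cxcr7 stood at -2.87 and -2.97 at 4 weeks and -3.16 and -2.90 at 11 weeks.

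Cxcl16, the membrane-bound ligand of CXCR6, read -0.07 and 0.03 at 4 weeks and -0.74 and -0.55 at 11 weeks in C57BL/6J. In KKAy, Cxcl16 stood at -0.46 and -0.22 at 4 weeks and -0.67 and -0.55 at 11 weeks. Its strain differences were -0.32 (SE 0.13, adjusted p = 0.193) and 0.04 (SE 0.13, adjusted p = 0.894). It fell with age in C57BL/6J, with a difference of -0.63 (SE 0.13, adjusted p = 0.0457). This call was lost without any 1 of the 8 arrays (adjusted p = 0.0649 to 0.279), and its second probe gave -0.10. Cxcr6, the receptor of patrolling natural killer T cells in liver, read -2.17 and -1.91 at 4 weeks and -2.90 and -2.67 at 11 weeks in C57BL/6J. In KKAy, Cxcr6 stood at -2.85 and -2.63 at 4 weeks and -3.60 and -3.36 at 11 weeks. The KKAy arrays lay below the C57BL/6J arrays at each age, with differences of -0.70 (SE 0.17, adjusted p = 0.0397) at 4 weeks and -0.69 (SE 0.17, adjusted p = 0.0326) at 11 weeks. The 4-week call was lost without any 1 array other than KKAy 11-week replicate 1 or KKAy 11-week replicate 2 (adjusted p = 0.0743 to 0.186) and the 11-week call without any 1 array other than C57BL/6J 4-week replicate 1 or C57BL/6J 4-week replicate 2 (adjusted p = 0.0508 to 0.178). With age Cxcr6 fell in KKAy, with a difference of -0.74 (SE 0.17, adjusted p = 0.0307), a call lost without any 1 array other than C57BL/6J 4-week replicate 1 or C57BL/6J 4-week replicate 2 (adjusted p = 0.0569 to 0.142). Under normexp the 3 differences were -0.47, -0.29 and -0.24, none of them called.

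Cx3cl1, the membrane-bound ligand of CX3CR1, read -3.09 and -2.62 at 4 weeks and -3.06 and -2.60 at 11 weeks in C57BL/6J. In KKAy, Cx3cl1 stood at -4.22 and -3.71 at 4 weeks and -4.16 and -3.29 at 11 weeks. All KKAy arrays were below all C57BL/6J arrays, yet the differences of -1.11 (SE 0.36, adjusted p = 0.106) and -0.90 (SE 0.36, adjusted p = 0.141) did not pass the test. Cx3cr1, a receptor of monocytes and resident macrophages, read -4.61 and -5.13 at 4 weeks and -5.86 and -6.28 at 11 weeks in C57BL/6J. In KKAy, Cx3cr1 stood at -3.17 and -3.67 at 4 weeks and -5.66 and -6.59 at 11 weeks, with neither 11-week group above background on either array. Its level in KKAy was at least 3.39-fold lower at 11 than at 4 weeks, a bound from the brighter group's mean against the dim arrays' detection limits. As Cx3cr1 was kept through KKAy at 4 weeks alone, this is a description with no p. Under normexp the log2 difference was -0.69 in place of -2.71, so the bound did not hold there. Its strain difference at 4 weeks was 1.45 (SE 0.37), and its second probe was above background on no array.

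Among the CC ligands of monocytes, Ccl2 and Ccl7, both of which bind CCR2, Ccl2 was lower in KKAy at 4 weeks and Ccl7 at 11 weeks, and neither was called higher. Ccl2 levels were -2.42 and -2.24 at 4 weeks and -2.99 and -2.78 at 11 weeks in C57BL/6J. In KKAy, Ccl2 stood at -3.48 and -3.22 at 4 weeks and -2.75 and -2.44 at 11 weeks. They were lower on both KKAy arrays at 4 weeks and higher on both at 11 weeks. The Ccl2 difference was -1.02 (SE 0.17, adjusted p = 0.0117) at 4 weeks and 0.29 (SE 0.17, adjusted p = 0.294) at 11 weeks, with a rise in KKAy with age of 0.75 (SE 0.17, adjusted p = 0.0303). The strain difference of Ccl2 changed by 1.31 (SE 0.24, adjusted p = 0.0445), a call lost without any 1 of the 8 arrays (adjusted p = 0.0656 to 0.197). The Ccl2 call at 4 weeks was lost without C57BL/6J 4-week replicate 2 or KKAy 4-week replicate 1 (adjusted p = 0.0682 to 0.0759) and that with age without any 1 array other than KKAy 11-week replicate 1 (adjusted p = 0.0535 to 0.142). Under normexp the Ccl2 difference was -0.51 at 4 weeks, 0.51 with age and 0.74 for the change, none of them called. Ccl7 levels were -2.95 and -3.07 at 4 weeks and -3.32 and -3.51 at 11 weeks in C57BL/6J. In KKAy, Ccl7 stood at -3.32 and -3.21 at 4 weeks and -4.08 and -4.18 at 11 weeks. Both KKAy arrays were the lower ones at each age, with differences of -0.26 (SE 0.12, adjusted p = 0.242) and -0.71 (SE 0.12, adjusted p = 0.00993). Ccl7 fell with age in KKAy, with a difference of -0.86 (SE 0.12, adjusted p = 0.0069). Its 11-week strain call was lost without C57BL/6J 11-week replicate 1 or KKAy 11-week replicate 2 (adjusted p = 0.052 to 0.0809). Under normexp the Ccl7 difference was -0.12 between the strains at 11 weeks and -0.16 with age, neither called.

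Ccr2, the receptor through which monocytes leave bone marrow, read -3.73 and -3.47 at 4 weeks and -4.93 and -4.72 at 11 weeks in C57BL/6J. In KKAy, Ccr2 stood at -5.03 and -5.18 at 4 weeks and -4.93 and -4.67 at 11 weeks, and was above background on 1 KKAy array at 4 weeks and on none at 11 weeks. The 2 C57BL/6J arrays at 4 weeks stood above the other 6. The Ccr2 difference at 4 weeks was -1.51 (SE 0.16), and at 11 weeks KKAy had no measured level to compare. It fell with age in C57BL/6J, with a difference of -1.23 (SE 0.16, adjusted p = 0.00813). The fitted change of the strain difference, 1.53 (SE 0.22), is a description with no p, as Ccr2 passed only through C57BL/6J. It rests on KKAy at 11 weeks, which was below background, and its call was lost without any 1 of the 8 arrays. The age call was lost without C57BL/6J 11-week replicate 1 or C57BL/6J 4-week replicate 2 (adjusted p = 0.0579 to 0.0756). With the normexp background correction the Ccr2 values shrank to -0.32 at 4 weeks, -0.19 with age in C57BL/6J and 0.45 for the change, and none was called.

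Other inflammatory CC ligands were lower in KKAy or not called, apart from Ccl9. Ccl4 read -4.05 and -3.43 at 4 weeks and -4.34 and -3.91 at 11 weeks in C57BL/6J. In KKAy, Ccl4 stood at -5.09 and -5.09 at 4 weeks and -4.52 and -4.04 at 11 weeks, with a difference of -1.35 (SE 0.27, adjusted p = 0.0246) at 4 weeks and -0.16 (SE 0.27, adjusted p = 0.754) at 11 weeks. Its 4-week value shrank to -0.35 under the normexp correction, and the call was lost without C57BL/6J 4-week replicate 2, KKAy 4-week replicate 1 or KKAy 4-week replicate 2 (adjusted p = 0.102 to 0.109). Ccl5, released by T and natural killer cells, read 0.99 and 1.5 at 4 weeks and -0.59 and -0.22 at 11 weeks in C57BL/6J. In KKAy, Ccl5 stood at -0.16 and 0.31 at 4 weeks and -1.41 and -0.84 at 11 weeks. It fell with age in both strains, with a difference of -1.65 (SE 0.30, adjusted p = 0.0268) in C57BL/6J and -1.20 (SE 0.30, adjusted p = 0.0414) in KKAy. The strain differences of -1.17 (SE 0.30, adjusted p = 0.0503) and -0.72 (SE 0.30, adjusted p = 0.152) fell short, and the second Ccl5 probe gave strain differences of -1.36 and -0.91. The age calls of Ccl5 were lost without C57BL/6J 11-week replicate 1, C57BL/6J 11-week replicate 2, C57BL/6J 4-week replicate 1 or C57BL/6J 4-week replicate 2 (adjusted p = 0.0643 to 0.173) in C57BL/6J and without any 1 of the 8 arrays (adjusted p = 0.0521 to 0.17) in KKAy.

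Ccl6, a chemokine of macrophages and neutrophils found in rodents, read 2.39 and 2.49 at 4 weeks and 1.72 and 1.84 at 11 weeks in C57BL/6J. In KKAy, Ccl6 stood at 1.79 and 1.86 at 4 weeks and 1.02 and 0.97 at 11 weeks. The 2 arrays of each group lay close together, and the KKAy arrays were below the C57BL/6J arrays at each age. The Ccl6 difference was -0.61 (SE 0.10, adjusted p = 0.0129) at 4 weeks and -0.79 (SE 0.10, adjusted p = 0.00441) at 11 weeks. With age it fell, with differences of -0.66 (SE 0.10, adjusted p = 0.0169) in C57BL/6J and -0.83 (SE 0.10, adjusted p = 0.00494) in KKAy. Under spike-in scaling the 4-week difference was -0.26 and was not called. The 4-week call of Ccl6 was also lost without C57BL/6J 4-week replicate 1, C57BL/6J 4-week replicate 2, KKAy 4-week replicate 1 or KKAy 4-week replicate 2 (adjusted p = 0.0564 to 0.0879), and its age call in C57BL/6J without C57BL/6J 11-week replicate 1, C57BL/6J 11-week replicate 2, C57BL/6J 4-week replicate 1 or C57BL/6J 4-week replicate 2 (adjusted p = 0.0774 to 0.149). Ccl9, another CCR1 ligand of the macrophage lineage, was the other gene higher in KKAy at 11 weeks. It read 3.33 and 3.25 at 4 weeks and 2.73 and 2.63 at 11 weeks in C57BL/6J. In KKAy, Ccl9 stood at 3.41 and 3.25 at 4 weeks and 3.45 and 3.23 at 11 weeks. Ccl9 differed by 0.66 (SE 0.12, adjusted p = 0.0155) at 11 weeks and by 0.04 (SE 0.12, adjusted p = 0.903) at 4 weeks. Its age difference in C57BL/6J was -0.61 (SE 0.12, adjusted p = 0.0402). The Ccl9 call at 11 weeks was lost without C57BL/6J 11-week replicate 1, C57BL/6J 11-week replicate 2 or KKAy 11-week replicate 1 (adjusted p = 0.0646 to 0.108) and that with age without any 1 array other than KKAy 11-week replicate 1 or KKAy 11-week replicate 2 (adjusted p = 0.0703 to 0.241).

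Kupffer cell and macrophage markers were lower in KKAy beside Ccr2 and these CC ligands. Of 9 measured, 9 were lower at 4 weeks and 6 at 11 weeks, against 8.92% and 11.7% of all genes lower. With age 8 of 9 were lower in C57BL/6J and 5 of 9 in KKAy, against 6.15% and 10.5% of all genes. None of the 9 was higher in these comparisons. Their summed signal was 145 to 174 in C57BL/6J at 4 weeks, 59.6 to 65.8 in C57BL/6J at 11 weeks, 54.0 to 61.7 in KKAy at 4 weeks and 33.4 to 35.5 in KKAy at 11 weeks. All 9 were above background, and their part in the results of Ccr2 and the CC ligands was not tested.

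**Figure D4:**
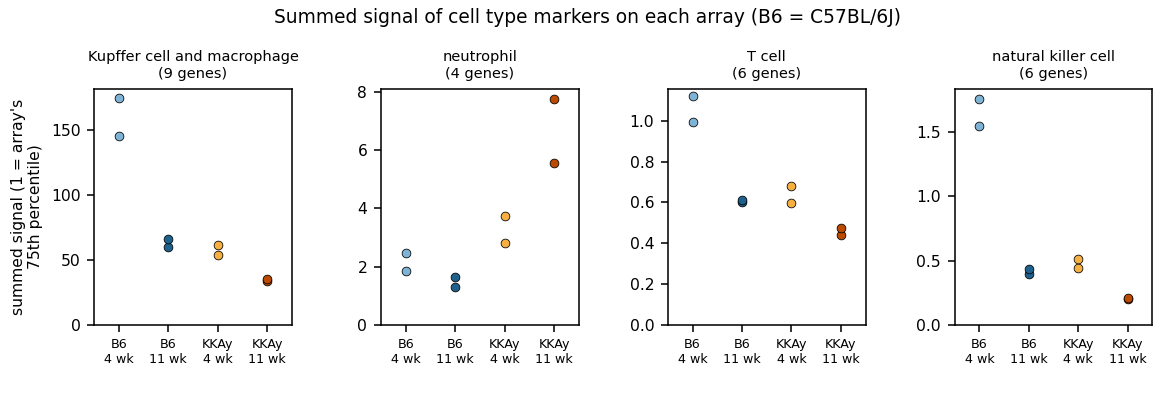
Summed signal of the measured markers of 4 cell types on each array (points), in multiples of the array's 75th percentile, with axes from 0 and a scale of its own for each panel. Macrophage, T cell and natural killer cell sums are highest in C57BL/6J at 4 weeks, and the neutrophil sum, mostly S100a9, is highest in KKAy at 11 weeks.

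Ccl24, an eosinophil attractant also called eotaxin-2, was lower in KKAy and lower at 11 weeks, and its receptor Ccr3 went the other way between the strains at 4 weeks. Ccl24 levels were 1.55 and 1.92 at 4 weeks and -0.47 and -0.23 at 11 weeks in C57BL/6J. In KKAy, Ccl24 stood at 0.01 and 0.33 at 4 weeks and -1.86 and -1.33 at 11 weeks. They ran from highest in C57BL/6J at 4 weeks to lowest in KKAy at 11 weeks, with no overlap of the strains at either age. The difference was -1.57 (SE 0.24, adjusted p = 0.00864) at 4 weeks, 2.96-fold lower, and -1.25 (SE 0.24, adjusted p = 0.0156) at 11 weeks, 2.37-fold lower. With age Ccl24 fell, with differences of -2.09 (SE 0.24, adjusted p = 0.00535) in C57BL/6J and -1.77 (SE 0.24, adjusted p = 0.00611) in KKAy. Its second probe gave -1.49, -1.23, -2.0 and -1.75 for these 4 differences. Calls of Ccl24 were lost without C57BL/6J 4-week replicate 2 or KKAy 4-week replicate 1 (adjusted p = 0.0523 to 0.0565) at 4 weeks, without C57BL/6J 11-week replicate 1, C57BL/6J 11-week replicate 2 or KKAy 11-week replicate 1 (adjusted p = 0.055 to 0.1) at 11 weeks and without C57BL/6J 11-week replicate 1 (adjusted p = 0.0535) with age in C57BL/6J. Ccr3 read -4.36 and -3.94 at 4 weeks and -5.08 and -4.83 at 11 weeks in C57BL/6J. In KKAy, Ccr3 stood at -2.88 and -2.79 at 4 weeks and -4.47 and -4.25 at 11 weeks. Both KKAy arrays were above both C57BL/6J arrays at each age, with a difference of 1.31 (SE 0.18, adjusted p = 0.00652) at 4 weeks and 0.59 (SE 0.18, adjusted p = 0.0726) at 11 weeks. It fell with age in KKAy, with a difference of -1.52 (SE 0.18, adjusted p = 0.00439). The normexp correction reduced the Ccr3 difference to 0.77 at 4 weeks and -0.41 with age in KKAy and ended both calls, and its second probe was above background on no array.

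Ccl17, a dendritic cell chemokine that binds CCR4, read -4.03 and -3.87 at 4 weeks and -4.99 and -4.78 at 11 weeks in C57BL/6J. In KKAy, Ccl17 stood at -5.22 and -4.93 at 4 weeks and -5.96 and -5.55 at 11 weeks, and was above background on 1 KKAy array at 4 weeks and none at 11 weeks. The C57BL/6J arrays were higher at each age. Its 4-week difference was -1.13 (SE 0.19). At 11 weeks Ccl17 was at least 1.23-fold lower in KKAy, by the same bound. It fell with age in C57BL/6J, with a difference of -0.94 (SE 0.19, adjusted p = 0.0378). Under the normexp correction these differences were between -0.25 and -0.05, with none called, and the bound at 11 weeks did not hold. The age call was lost without any 1 array other than KKAy 11-week replicate 1 or KKAy 11-week replicate 2 (adjusted p = 0.0578 to 0.231).

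Of 5 kept chemokines of lymphoid and epithelial tissue, Ccl21c and Ccl27 were lower in KKAy at 4 weeks and Ccl21c at 11 weeks. Over all genes 8.92% and 11.7% were lower, and none of the 5 was higher. Ccl28 was also called lower at 11 weeks, but it was kept only through C57BL/6J, so this follows from how it was kept. Ccl21c, one of several near-identical Ccl21 genes of the mouse whose RNA the probe may not separate, read -1.21 and -1.52 at 4 weeks and -1.40 and -1.69 at 11 weeks in C57BL/6J. In KKAy, Ccl21c stood at -3.17 and -3.69 at 4 weeks and -2.5 and -3.11 at 11 weeks. The KKAy arrays were lower throughout, with differences of -2.06 (SE 0.28, adjusted p = 0.00591) at 4 weeks, 4.18-fold, and -1.26 (SE 0.28, adjusted p = 0.0261) at 11 weeks. The 11-week call was lost without C57BL/6J 11-week replicate 1, C57BL/6J 11-week replicate 2 or KKAy 11-week replicate 2 (adjusted p = 0.086 to 0.15). Under normexp the 2 differences of Ccl21c were -1.28 and -0.78. Ccl19, which also has near-identical copies, read 0.06 and 0.44 at 4 weeks and 0.25 and 0.13 at 11 weeks in C57BL/6J. In KKAy, Ccl19 stood at 0.27 and 0.64 at 4 weeks and -0.51 and -0.13 at 11 weeks, and its differences of 0.20 (SE 0.21, adjusted p = 0.652) and -0.51 (SE 0.21, adjusted p = 0.156) were not called. Its second probe gave 0.70 and 0.30, the opposite sign at 11 weeks. Ccr7, the receptor of both, read -3.81 and -3.81 at 4 weeks and -5.31 and -4.27 at 11 weeks in C57BL/6J. In KKAy, Ccr7 stood at -4.80 and -4.93 at 4 weeks and -5.60 and -6.75 at 11 weeks. It was above background on 1 KKAy array at 4 weeks and none at 11 weeks, and was not called. Its 4-week difference was -1.06 (SE 0.46), and at 11 weeks it was at least 1.31-fold lower in KKAy.

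Ccl25, a gut and thymus chemokine, read -0.02 and 0.64 at 4 weeks and 0.20 and 0.73 at 11 weeks in C57BL/6J. In KKAy, Ccl25 stood at -0.20 and 0.59 at 4 weeks and 0.11 and 1.0 at 11 weeks, with differences of -0.12 (SE 0.43, adjusted p = 0.92) and 0.09 (SE 0.43, adjusted p = 0.916). Its receptor Ccr9, found on gut-homing T cells, read -4.15 and -3.89 at 4 weeks and -4.28 and -4.26 at 11 weeks in C57BL/6J. In KKAy, Ccr9 stood at -5.28 and -4.65 at 4 weeks and -5.29 and -5.49 at 11 weeks. The KKAy arrays were lower at both ages, with differences of -0.94 (SE 0.23, adjusted p = 0.0423) and -1.12 (SE 0.23, adjusted p = 0.0189). Under the normexp correction the Ccr9 differences were -0.16 and -0.18 with no call. The Ccr9 calls were lost without any 1 array other than KKAy 4-week replicate 2 (adjusted p = 0.0608 to 0.19) at 4 weeks and without C57BL/6J 11-week replicate 1, C57BL/6J 11-week replicate 2, KKAy 11-week replicate 1 or KKAy 11-week replicate 2 (adjusted p = 0.0506 to 0.103) at 11 weeks. Ccl27, now Ccl27a, a skin chemokine with near-identical copies, read -0.53 and -0.27 at 4 weeks and -0.46 and -0.17 at 11 weeks in C57BL/6J. In KKAy, Ccl27 stood at -1.32 and -1.07 at 4 weeks and -0.61 and -0.26 at 11 weeks. It was lower in KKAy at 4 weeks, with a difference of -0.79 (SE 0.19, adjusted p = 0.0428), against -0.12 (SE 0.19, adjusted p = 0.733) at 11 weeks. It rose with age in KKAy by 0.76 (SE 0.19, adjusted p = 0.0437). The 4-week call was lost without any 1 array other than KKAy 11-week replicate 1 or KKAy 11-week replicate 2 (adjusted p = 0.0732 to 0.195) and the age call without any 1 of the 8 arrays (adjusted p = 0.0583 to 0.185). Ccl28, a mucosal chemokine, read -5.37 and -4.96 at 4 weeks and -4.70 and -4.94 at 11 weeks in C57BL/6J. In KKAy, Ccl28 stood at -5.83 and -5.48 at 4 weeks and -5.55 and -6.43 at 11 weeks and was above background on no KKAy array. At 11 weeks it was at least 1.29-fold lower in KKAy, a bound that did not hold under normexp, where the log2 difference was -0.01. The Ccl28 call was also lost in the deposited value table, after quantile normalization and without any 1 array other than KKAy 11-week replicate 1. Ccr6, the receptor of Ccl20, read -3.30 and -3.0 at 4 weeks and -3.09 and -3.01 at 11 weeks in C57BL/6J. In KKAy, Ccr6 stood at -3.74 and -2.87 at 4 weeks and -3.72 and -3.57 at 11 weeks, and no comparison of it was called.

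With age, more of the 33 genes fell than rose in each strain. In C57BL/6J 2 were higher and 9 lower at 11 than at 4 weeks, against 1.99% of all genes higher and 6.15% lower (8.14% in either direction), with a median of -0.41 over the 33 and 0.07 over all genes. In KKAy 4 were higher and 11 lower, against 8% and 10.5% (18.5% in either direction), with medians of -0.42 and 0.03. The C57BL/6J age differences share the 4-week C57BL/6J arrays with the strain difference at 4 weeks, so genes high on those 2 arrays count in both. Under spike-in scaling, which moved the median of all genes to -0.19 in KKAy, 2 were higher and 15 lower in KKAy. In C57BL/6J, leaving out a single array left 2 (11-week replicate 1), 4 (11-week replicate 2), 6 (4-week replicate 1) or 3 (4-week replicate 2) calls, and in KKAy 8 without 4-week replicate 2. Without 11-week replicate 1 the C57BL/6J calls were 1 higher and 1 lower. The 11 lower in KKAy include Cx3cr1, kept only through KKAy at 4 weeks. Normexp ended the age calls of Ccl17, Ccl9, Ccr2 and Cxcl14 in C57BL/6J and of Ccl2, Ccl27, Ccl7, Ccr3, Cx3cr1 and Cxcr6 in KKAy.

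**Figure D5:**
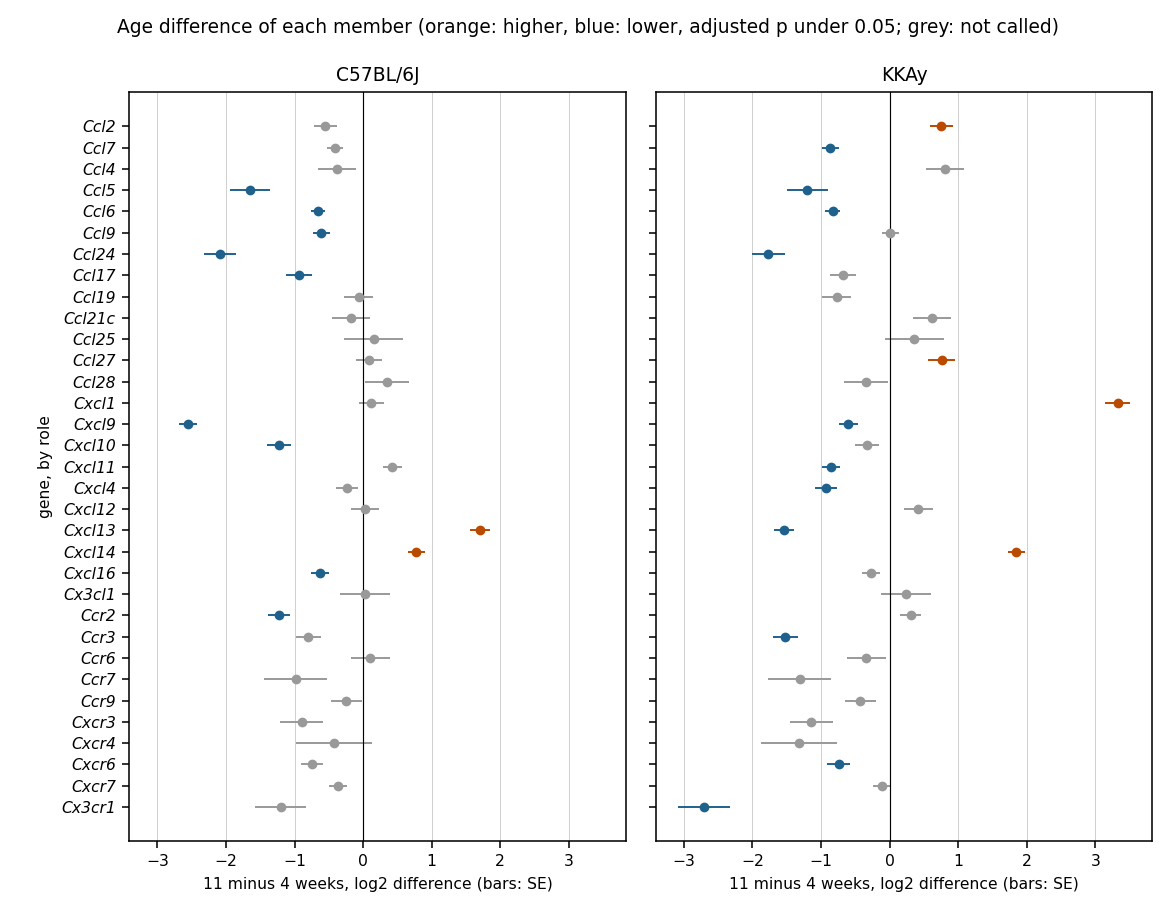
Log2 difference of 11 minus 4 weeks (points) with its standard error (bars) for each of the 33 genes in C57BL/6J (left) and KKAy (right), on 1 shared scale, with genes by role; colour marks calls. In C57BL/6J Cxcl13 and Cxcl14 are the coloured points right of 0, and in KKAy Cxcl1 lies farthest right at 3.33.

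The strain difference changed between the ages in 7 of the 33 genes, 5 upward and 2 downward, against 3.82% of all genes in either direction (2.02% upward and 1.81% downward). Upward were Cxcl1, Cxcl9, Ccr2, Cxcl14 and Ccl2, and downward were Cxcl13 and Cxcl11. Under spike-in scaling, which moved the median of all genes to -0.21, 3 were upward and 2 downward. Leaving out any 1 array left 2 or 3 calls, and Cxcl1 and Cxcl13 were called in each of these fits. Spike-in scaling ended the calls of Ccl2 and Cxcl14, and normexp those of Ccl2, Ccr2, Cxcl11 and Cxcl14. The separate fit of probes above background on all arrays left out Ccr2 and tested 25 genes of the family. It called 4 upward and 2 downward, against 4.18% of all its genes in either direction.

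Other parts of the chemokine system were read from lists of genes outside the 33. Of 10 measured ligands, receptors and scavengers named otherwise, 2 were higher and 3 lower in KKAy at 4 weeks, and 3 higher and 4 lower at 11 weeks. Over all genes the shares were 6.5% higher and 8.92% lower at 4 weeks and 9.81% and 11.7% at 11 weeks. Ackr1, the Duffy antigen that binds chemokines on red cells and venules, was higher by 2.27 (SE 0.28, adjusted p = 0.00428) and 2.05 (SE 0.28, adjusted p = 0.00498). The erythroid markers beside it had a summed signal of 95.6 to 108 and 54.8 to 59.1 in C57BL/6J at 4 and 11 weeks and 156 to 175 and 90.3 to 102 in KKAy. Their part was not tested. Ackr4, which scavenges Ccl19, Ccl21 and Ccl25, was lower, with differences of -1.14 (SE 0.25, adjusted p = 0.0327) and -1.46 (SE 0.25, adjusted p = 0.0114).

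Of 26 measured transducers that carry chemokine receptor signals, 10 were lower and none higher in KKAy at 4 weeks, and 5 lower and none higher at 11 weeks, against 8.92% and 11.7% of all genes lower. With age 1 was higher and 11 lower in C57BL/6J, and none higher and 6 lower in KKAy, against 6.15% and 10.5% of all genes lower. Vav1, which activates Rac in leukocytes, differed by -1.02 (SE 0.10, adjusted p = 0.00181) at 4 weeks, and Rgs1, which damps signals of G protein-coupled receptors in lymphocytes, by -1.90 (SE 0.21, adjusted p = 0.00312) and -1.82 (SE 0.21, adjusted p = 0.0029). Pik3r5, a regulatory subunit of the leukocyte PI3 kinase gamma, differed by -0.90 (SE 0.10, adjusted p = 0.00349) and -1.01 (SE 0.10, adjusted p = 0.00177). The summed macrophage and lymphocyte markers given above were also lower in KKAy, and their part in the transducer counts was not tested.

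Of 20 measured cytokines and NF-kB or interferon regulators that induce chemokines, 2 were higher and 3 lower in KKAy at 4 weeks, and 1 higher and 2 lower at 11 weeks. Over all genes 6.5% were higher and 8.92% lower at 4 weeks. At 11 weeks the shares of this list, 5% and 10%, were no larger than the 9.81% and 11.7% of all genes. Nfkbiz, which encodes an NF-kB co-activator in the nucleus, was higher in KKAy by 0.79 (SE 0.09, adjusted p = 0.00339) at 4 weeks and 1.61 (SE 0.09, adjusted p = 0.000267) at 11 weeks. The change was 0.81 (SE 0.13, adjusted p = 0.0313). Irf7, an interferon regulator, was lower, with differences of -3.10 (SE 0.12, adjusted p = 0.000141) and -1.44 (SE 0.12, adjusted p = 0.000974). The change of Irf7 was 1.66 (SE 0.17, adjusted p = 0.0102). Tnf was lower, with differences of -0.67 (SE 0.12, adjusted p = 0.016) and -0.86 (SE 0.12, adjusted p = 0.0053). Il1b rose with age in KKAy by 1.22 (SE 0.19, adjusted p = 0.0103), and its strain difference at 11 weeks was 0.23 (SE 0.19, adjusted p = 0.468). The transducers, regulators and markers share the arrays of the 33 genes, so they are not separate evidence.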

How the data were processed

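Signal intensity of each spot had been extracted from the scans by the authors with Agilent Feature Extraction 9.5.1.1, per the submitters' processing notes, and the deposited scanner files give a processed, background-subtracted intensity for 43379 non-control spots per array. The deposited series value table holds log2 values of the same arrays. Of its values 99.6% lay within 0.001 of the log2 processed intensity shifted by each array's percentile, with column medians of -3.96 to -3.67.

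Here log2 of the processed intensity minus the array's 75th percentile was used. Flagged spots were left out and spots of a probe were averaged. A gene's brightest probe was kept if well above background on both arrays of a group (17049 genes). The 4 group means were fitted over 8 arrays with limma 3.58.1 in R 4.3.3 (4 residual degrees of freedom), with Benjamini-Hochberg adjustment over all genes and a threshold of 0.05 in 5 comparisons. In simulated data for the strain comparison at 4 weeks, the fit recovered 29 of 100 genes changed by a log2 of 1. It recovered 86 of 100 changed by 2, so a difference that was not called may still be real. Where a group was above background on no array, a fold is a lower bound under the main processing. Of the family, 1 gene is not reported here. The members and lists were chosen with earlier results of these data known. Every called member is named, with its arrays' values for those with the smallest adjusted p and for ligands whose receptor was kept, and of other lists up to 3 genes per comparison. Current symbols came from RefSeq. Precision is limited by 2 arrays per group. Alternatives were quantile, spike-in and normexp processing, the deposited table, the mean of probes, filters on dim probes, the 4 arrays alone, a replicate block and leaving out each array.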

Additional observations from a re-analysis of the deposited data

Results flagged for a closer look

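For 7 of the 33 genes the strain difference itself changed between 4 and 11 weeks, tested as the difference at 11 weeks minus that at 4 weeks over 2 arrays per group (limma, adjusted over all genes tested). Cxcl13 changed by -3.25 (adjusted p = 0.0025), with a KKAy level above C57BL/6J at 4 weeks and below it at 11 weeks on every array. Cxcl1 changed by 3.21 (adjusted p = 0.00462), higher in KKAy on every array at both ages. Cxcl9 changed by 1.96 (adjusted p = 0.00792). The fitted change of Ccr2, 1.53, is counted among the 7 but is a description with no p. Ccr2 passed only through C57BL/6J, with no KKAy array at 11 weeks above background. In Cxcl9 and Ccr2 the 2 C57BL/6J arrays at 4 weeks were above the other 6 arrays. The same holds for each array's summed markers of several cell types. These were macrophages, monocytes and dendritic cells, T cells, natural killer cells, B cells and stellate cells, and their part was not tested. In KKAy at 4 weeks only 1 of 5 monocyte and dendritic cell markers and 1 of 6 stellate cell markers were called lower. Most of the monocyte and dendritic cell sum was Ly6c1, with a mean log2 signal of 3.36 in C57BL/6J at 4 weeks. Its strain difference there, -0.50 (SE 0.17, adjusted p = 0.12), was not called. Cxcl14 changed by 1.07 (adjusted p = 0.0357) and Ccl2 by 1.31 (adjusted p = 0.0445). Cxcl11 changed by -1.28 (adjusted p = 0.0253).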

How the results depend on the processing

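No called difference of the 33 genes changed direction in any alternative run. Held in all of them were the calls of Ccl21c, Cxcl1, Cxcl10, Cxcl11, Cxcl4 and Cxcl9 at 4 weeks, Ccl6, Cxcl1 and Cxcl13 at 11 weeks, Cxcl13 and Cxcl9 with age in C57BL/6J, Ccl24, Cxcl1, Cxcl13 and Cxcl14 with age in KKAy, and Cxcl1 and Cxcl13 in the change of the strain difference. Without the filter on dim probes there were 5 calls at 11 weeks, 5 and 9 with age in C57BL/6J and KKAy, 3 changes of the strain difference and 2 genes with 1 direction at both ages. The normexp correction gave 11 calls at 4 weeks, 6 at 11 weeks, 7 and 9 with age in C57BL/6J and KKAy, 3 changes and 4 genes at both ages. The 4 arrays of a comparison alone gave 5 calls at 11 weeks and 7 and 6 with age in C57BL/6J and KKAy. Leaving out 1 array each gave 10 to 19 calls at 4 weeks, 3 to 10 at 11 weeks, 2 to 10 and 8 to 11 with age in C57BL/6J and KKAy, 2 to 3 changes and 2 to 5 genes at both ages. With 1 array left in a group, it was assumed to vary like the others. Samples with the same replicate number deviated together (r of 0.53 to 0.68 in 6 pairs of groups), but the labels do not say what a number shares. With the replicate number as a block there were 23 calls at 4 weeks, 20 at 11 weeks, 19 and 24 with age in C57BL/6J and KKAy, 19 changes and 13 genes at both ages, while the share of all genes called rose to 44.0%, 55.1%, 35.6%, 53.9% and 31.3%. Dim genes such as Ccl17, Ccl28, Ccr2 and Ccr9 limit what the signal over background can show. The cause of these changes was not tested.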
